A study of Mus musculus with 25 samples.

Results

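Fetus/graft-specific CD8+ T cells (T_FGS) that carry the inhibitory receptor PD1 after pregnancy were compared with and without the surface enzyme CD73, using ATAC-seq, which reads open chromatin from the sites where a transposase inserts sequencing adapters. S+P C7 libraries came from PD1+CD73- cells and S+P C5 libraries from PD1+CD73+ cells, with 4 libraries each, so that 8 of the 25 libraries of the series entered the comparison. The libraries were chosen by their labels alone, and each of the 13527 peaks in the count table was tested. The mice were C57BL/6 females that had rejected a skin graft from 2W-OVA.BALB/c donors, then carried a pregnancy sired by a 2W-OVA.BALB/c male, so the graft, the fetus and both sorted groups share the same sensitizing antigens. Cells were taken from spleen and lymph nodes within days after delivery and sorted with OVA:Kb tetramers, so they stand for the part of the response that reads a single transgenic peptide. Libraries with the same replicate number in the labels were treated as pairs. The other groups were Naive mice (3 libraries), unmated Sensitized mice (4), PD1- cells of mice that were naive before pregnancy (N+P C1, 3), PD1+CD73+ cells of the same kind of mice (N+P C5, 3) and PD1- cells of sensitized post-partum mice (S+P C4, 4), and they appear below where their levels place the peaks that changed.

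CD73, encoded by Nt5e, sits on the cell surface and turns AMP into adenosine, and CD39, encoded by Entpd1, supplies the AMP from ATP and ADP. Adenosine restrains T cells through the receptor encoded by Adora2a. Among antigen-experienced CD8+ T cells, stem-like and memory cells depend on regulators such as TCF1 (Tcf7), LEF1, FOXP1 and BACH2 and home to lymph nodes through CCR7, while effector cells and terminally exhausted cells keep open the genes of granzymes, chemokines and killer-cell receptors. PD1 marks recently stimulated as well as exhausted cells and does not by itself separate these states.

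The sequences that follow are centred on short motifs inside peaks called in the comparison. They are shown because, of the strings searched, the TCF/LEF string differed most in percentage points between the opening and closing sets. All are from the GRCm39 assembly, plus strand, 5′ to 3′. Capitals in the first 6 sequences, and in that of Gzma, mark the TCF/LEF string CTTTGAT or its reverse complement ATCAAAG. The first 6 lie in peaks that closed in S+P C7. The peak near Gzma opened in S+P C7 and was the single opening peak outside promoters with this string. In the other opening peaks shown, capitals mark the AP-1 string TGANTCA (Gzmb, Entpd1) and the T-box string AGGTGTNA (Ccl4). A match is a description of the letters, not evidence that a factor was bound. The Lef1 stretch begins just before its peak, and its string lies inside the peak.
Nt5e, chr9:88214602-88214861: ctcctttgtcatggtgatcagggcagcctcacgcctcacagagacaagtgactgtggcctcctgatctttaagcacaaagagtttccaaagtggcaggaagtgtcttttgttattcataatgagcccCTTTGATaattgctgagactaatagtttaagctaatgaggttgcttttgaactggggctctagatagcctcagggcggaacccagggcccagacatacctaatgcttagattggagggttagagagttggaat
Socs1, chr16:10486909-10487028: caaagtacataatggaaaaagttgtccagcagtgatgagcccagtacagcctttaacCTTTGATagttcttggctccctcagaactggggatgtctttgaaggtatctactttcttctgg
Eipr1, chr12:28884438-28884557: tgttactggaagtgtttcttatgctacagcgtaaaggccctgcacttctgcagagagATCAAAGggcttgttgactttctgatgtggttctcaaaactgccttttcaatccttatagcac
Cblb, chr16:51963714-51963833: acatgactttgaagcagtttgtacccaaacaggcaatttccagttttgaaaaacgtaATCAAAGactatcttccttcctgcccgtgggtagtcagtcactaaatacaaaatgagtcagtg
Klf7, chr1:64125131-64125250: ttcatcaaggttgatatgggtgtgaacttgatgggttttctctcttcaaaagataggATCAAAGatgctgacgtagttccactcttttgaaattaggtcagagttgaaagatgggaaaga
Lef1, chr3:130730626-130730745: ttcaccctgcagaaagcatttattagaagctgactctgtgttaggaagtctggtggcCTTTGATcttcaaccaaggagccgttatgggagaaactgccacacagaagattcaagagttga
Gzma, chr13:113227022-113227141: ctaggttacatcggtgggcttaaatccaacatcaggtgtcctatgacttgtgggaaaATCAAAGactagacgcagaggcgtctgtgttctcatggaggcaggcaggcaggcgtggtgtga
Gzmb, chr14:56499786-56499905: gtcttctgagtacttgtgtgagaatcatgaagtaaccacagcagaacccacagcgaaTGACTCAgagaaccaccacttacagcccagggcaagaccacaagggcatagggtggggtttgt
Entpd1, chr19:40654351-40654470: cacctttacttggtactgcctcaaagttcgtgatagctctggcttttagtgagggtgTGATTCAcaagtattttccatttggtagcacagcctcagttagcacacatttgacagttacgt
Ccl4, chr11:83548447-83548566: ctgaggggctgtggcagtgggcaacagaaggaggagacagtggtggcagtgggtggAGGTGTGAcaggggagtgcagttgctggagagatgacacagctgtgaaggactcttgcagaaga

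Of the 13527 peaks, 13522 are named for the protein-coding gene with the nearest start, a label of position that says nothing of which gene the peak serves. The rest carry no gene name, and 1 of them is a called peak. A peak passed the test at an adjusted p under 0.1, and was called when its log2 fold change (S+P C7 over S+P C5) was also beyond 0.9 in either direction. Called peaks higher in S+P C7 are termed opening and those lower in S+P C7 closing, since S+P C5 is the reference. Values for single libraries are normalized counts, that is counts divided by the size factor of the library, and are listed in the order of replicates 1 to 4. Errors are SD over 4 libraries for levels and SE for fold changes.

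Total counts in peaks were 25419715, 5361390, 9673682 and 10689602 for S+P C5 and 9524894, 4789587, 4989423 and 12638305 for S+P C7, so the first pair differed most in depth. Checked against marker genes, the labelled cell type had peaks at 4 of 5 CD8+ T cell markers (Cd3d, Cd3e, Cd3g and Cd8a), whose 11 peaks summed to between 4453 and 5150 normalized counts in S+P C5 libraries and between 4589 and 6168 in S+P C7. The B cell markers Ms4a1, Cd79a, Cd79b, Pax5 and Ebf1 had no peak. Of 6 myeloid markers only Cd68 had a peak (267 to 396 in S+P C5, 278 to 483 in S+P C7), and of 3 erythroid markers only Klf1 (450 to 557 and 466 to 549). Cd4 was the single CD4 T cell marker of 3 with peaks, at 306 to 499 in S+P C5 and 306 to 469 in S+P C7. One of its 2 peaks, intronic, passed downward and was lower in S+P C7 in 4 of 4 pairs (-0.60 ± 0.19, adjusted p = 0.00829), and its part in the results was not tested. Peaks of 2 of 3 NK cell markers, Eomes and Klrb1c, which CD8+ T cells can also use, summed to between 7817 and 10217 in S+P C5 and between 9132 and 10834 in S+P C7, and 6 of their 15 peaks passed the test with higher values in S+P C7. Ncr1, the third and most specific of them, had no peak, and no peak of these marker lists was called. In bulk libraries, fewer cells of one state cannot be told apart from a weaker signal in each cell.

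The sort itself was visible at Nt5e. An intronic peak of Nt5e at chr9:88214398-88215019, 5619 bp into the gene, held 341, 340, 454 and 304 normalized counts in S+P C5 against 62.0, 158, 108 and 57.4 in S+P C7. The groups did not overlap, and the difference of -2.02 ± 0.21 (log2, adjusted p = 6.73e-20) was the largest fall of any called peak. Because CD73 protein decided which cells went into each group, this peak is a check of the sort and not an independent result. The same peak was at 75.4 in Naive, 61.1 in N+P C1, 94.7 in S+P C4 and 121 in Sensitized (means, normalized over the 25 libraries), with 328 in S+P C5 but 87.5 in S+P C7. N+P C5, sorted as CD73+ like S+P C5, averaged 128. The Nt5e promoter peak fell by less, from 459, 421, 406 and 464 in S+P C5 to 216, 312, 303 and 335 in S+P C7 (log2 fold change -0.61 ± 0.14, adjusted p = 2.09e-04). A second intronic peak changed by -0.54 ± 0.11 and a peak in the neighbouring gene Snx14 by -0.55 ± 0.11, and both passed the test. The remaining Nt5e peak, 85263 bp from the start, was at -0.18 ± 0.15 and did not pass (adjusted p = 0.425).

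PD1 was required of both groups, and no peak near Pdcd1, the gene for PD1, was called. Its 5 peaks had log2 fold changes between -0.32 and 0.19. The intronic peak held 463, 608, 521 and 360 in S+P C5 against 513, 718, 626 and 394 in S+P C7 (0.19 ± 0.10, adjusted p = 0.172), so that the groups overlapped widely although the value was higher in S+P C7 in each of the 4 pairs. The farthest Pdcd1 peak, 39428 bp from the start, passed the test with a small fall of 0.32 (adjusted p = 0.0153). None of the 7 peaks near Cd8a was called. One of them, 14196 bp from the start, passed with higher values in S+P C7, at 230, 352, 268 and 257 in S+P C5 against 356, 382, 525 and 429 in S+P C7 (0.62 ± 0.14, adjusted p = 1.88e-04), and its groups did not overlap. The promoter of Cd3e, a component of the T cell receptor complex, did not pass (0.19 ± 0.10, adjusted p = 0.168).

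**Figure D1:**
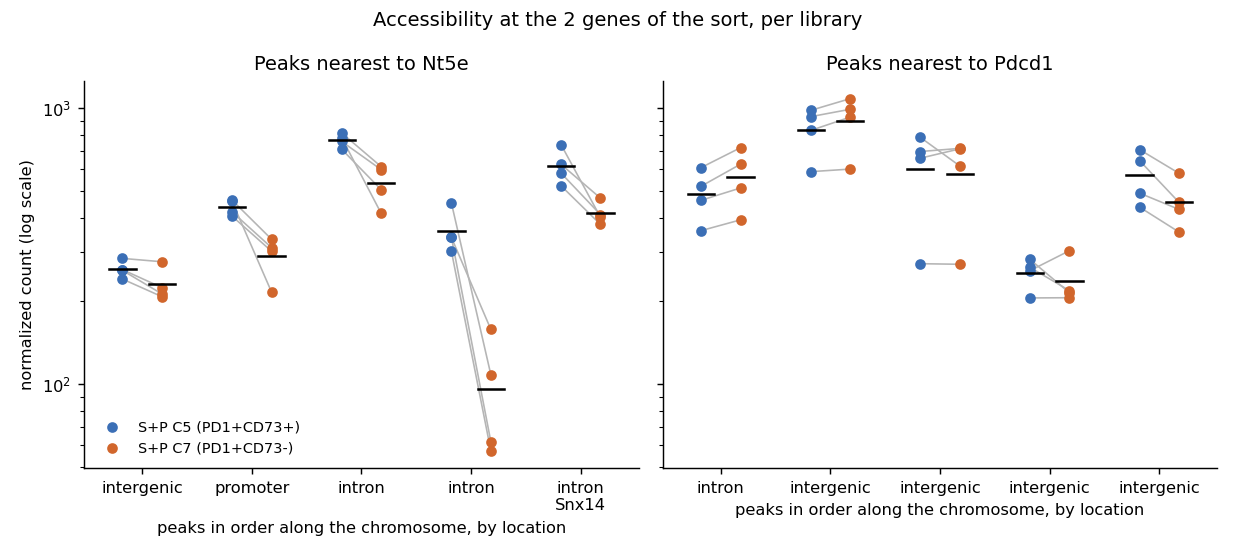
Normalized counts (y axis, log scale) of the 5 peaks nearest to Nt5e (left) and the 5 nearest to Pdcd1 (right), in chromosome order, in the 4 S+P C5 and 4 S+P C7 libraries, with grey lines joining libraries of the same replicate number and black bars at the group means. The fourth Nt5e peak, 5619 bp from the start, separates the groups most. The Nt5e promoter peak, the other intronic peak of Nt5e and the peak in Snx14 also separate them without overlap, while the Pdcd1 peaks overlap.

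Across the genome the comparison was lopsided. Of 13527 peaks, 443 were called (3.27%), of which 56 opened (0.414%) and 387 closed (2.86%) in S+P C7. Without the fold threshold, 3551 peaks passed (26.3%), and these were divided more evenly, with 1577 higher (11.7%) and 1974 lower (14.6%) in S+P C7. Called peaks ranged from 0.90 to 1.69 on the log2 scale in the opening set and from -2.02 to -0.90 in the closing set. The normalized counts of the groups did not overlap for 45 of the 56 opening and 246 of the 387 closing peaks, while over all peaks 5.73% were higher in S+P C7 without overlap and 5.91% lower without overlap. Of the opening peaks, 54 were higher in S+P C7 in all 4 pairs, and 385 of the closing peaks were lower in all 4.

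Nearly all called peaks were distal. Only 5 opening and 24 closing peaks were promoter peaks, with a midpoint no more than 1000 bp from a protein-coding transcript start, although 7670 of all 13527 peaks (56.7%) were. Calls were made for 7.07% of peaks outside promoters and 0.378% of promoter peaks. The opening set was made up of 25 intronic, 25 intergenic, 1 exonic and 5 promoter peaks, and the closing set of 186 intronic, 161 intergenic, 16 exonic and 24 promoter peaks. Opening peaks were short, with a median length of 472.5 bp against 697 bp for closing peaks and 798 bp for all peaks outside promoters. Their median GC content was 49.1%, that of closing peaks 46.1%, and that of all peaks outside promoters 48.1%.

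The imbalance was concentrated in weakly open chromatin. Among the 3382 peaks with the lowest mean counts (31.0 to 331), 33 opened and 324 closed, and the median log2 fold change of these 3382 was -0.14. Among the next 3382 peaks 19 opened and 55 closed, with a median of -0.01. In the upper bins of the same size, 3 opened and 5 closed, then 1 opened and 3 closed. When fold changes were instead centred along abundance with loess offsets, 239 peaks were called, of which 85 opened and 154 closed, so the opening share was 35.6% in place of 12.6%. Of the original calls, 54 opening and 152 closing peaks were also called this way. The excess of closing over opening peaks therefore held its direction, but its size depended on the centring. Median raw counts at closing peaks were 140 to 891 per library in S+P C5 and 53 to 165 in S+P C7, and at opening peaks 134 to 719 over the 8 libraries.

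**Figure D2:**
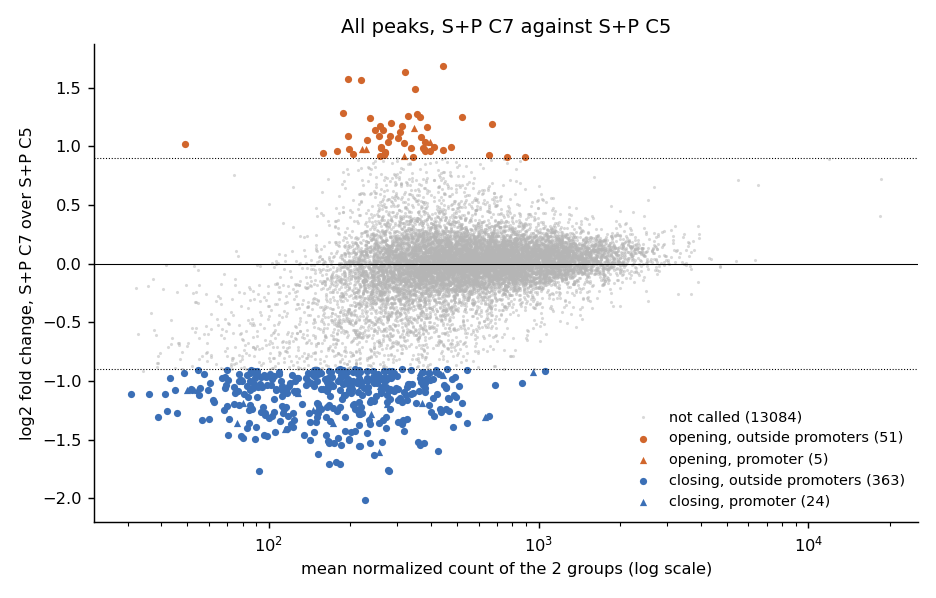
Log2 fold change of S+P C7 over S+P C5 (y axis) against the mean normalized count (x axis, log scale) for the 13527 peaks, with the 56 opening peaks in orange, the 387 closing peaks in blue, promoter peaks among them as triangles and the thresholds of 0.9 as dotted lines. Closing peaks gather at low means, where 324 of the 387 lie among the 3382 lowest peaks.

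Among the peaks that opened in S+P C7 were peaks near genes of granzymes, a chemokine and receptors of differentiated effector cells. The peak near Gzma, the granzyme A gene, lies in an intron of Cdc20b and held 88.4, 203, 179 and 273 normalized counts in S+P C5 against 271, 496, 628 and 652 in S+P C7, a difference of 1.49 ± 0.14 on the log2 scale (adjusted p = 5.74e-24). The lowest S+P C7 library, replicate 1, was just under the highest S+P C5 library, so the groups overlapped by that library, while every pair rose by at least 1.25. At the promoter of Gzmb, which encodes granzyme B, counts were 241, 236, 216 and 354 in S+P C5 against 480, 438, 530 and 686 in S+P C7 (1.03 ± 0.12, adjusted p = 3.92e-15). A peak 4864 bp from Ccl4, the gene of a chemokine released by activated T cells, rose from 197, 313, 237 and 254 to 412, 549, 497 and 579 (1.04 ± 0.12, adjusted p = 3.57e-15). For both genes the lowest S+P C7 library was above the highest S+P C5 library.

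Surface receptors followed. Cx3cr1, the receptor for fractalkine that marks circulating effector cells, had opening peaks in an intron and at a promoter. The intronic peak held 141, 225, 142 and 186 in S+P C5 against 335, 359, 490 and 387 in S+P C7 (1.196 ± 0.17, adjusted p = 7.41e-11), and the promoter peak changed by 0.98 ± 0.17. Klrg1, a receptor of terminally differentiated effector cells, also had a pair of opening peaks, at 1.09 ± 0.18 and 1.14 ± 0.20. In the first of these, S+P C5 libraries were at 111, 144, 117 and 134 and S+P C7 libraries at 239, 216, 277 and 342, again without overlap. The promoter of Havcr2, which encodes the inhibitory receptor TIM-3, rose from 113, 158, 134 and 188 to 206, 331, 301 and 337 (0.98 ± 0.16, adjusted p = 1.68e-08). TIM-3 is a marker of terminal exhaustion as well as of effector activation, and Havcr2 was the single co-inhibitory receptor gene with an opening peak. In a fit of DESeq2 without pairing over the 25 libraries, the peaks of Klrg1 (adjusted p = 0.269), Havcr2 (0.223) and the Cx3cr1 intron (0.159) did not pass.

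In the adenosine pathway, 1 of 23 peaks opened, near Entpd1, and 3 closed, near Adk, Dpp4 and Nt5e. The Nt5e peak is a check of the sort, as stated above, and not an independent result. The called peaks all lay outside promoters, where 3 of 16 closed (18.8%), beside 6.2% of all peaks there. An intronic peak of Entpd1, which encodes CD39, held 204, 243, 136 and 164 in S+P C5 against 382, 325, 409 and 300 in S+P C7 (0.95 ± 0.17, adjusted p = 9.02e-07), and the other Entpd1 peak also passed the test upward, at 0.45. The call rested in part on the third pair, since without it the log2 fold change was 0.74, and without pairing over the 25 libraries it did not pass (adjusted p = 0.360). Besides Nt5e, the closing peaks of the list were intronic peaks of Adk (-1.15 ± 0.12) and of Dpp4 (-1.06 ± 0.26). Adk encodes the kinase that converts adenosine back to AMP, and Dpp4 encodes CD26. The Dpp4 call ended with loess offsets on abundance (-0.32) and without pairing, in DESeq2 over 8 libraries (adjusted p = 0.227) and 25 libraries (0.135) and in edgeR (0.293). The Adk peak held 679, 737, 620 and 520 in S+P C5 against 325, 384, 251 and 209 in S+P C7, with no overlap. None of the 7 peaks near Adora2a, the main adenosine receptor of T cells, passed the test (log2 fold changes of -0.02 to 0.22). Over the list, 7 of 12 genes had peaks, and of their 23 peaks 2 passed upward (8.70%) and 9 downward (39.1%), of which 4 of the downward were near Nt5e, beside 11.7% and 14.6% of all peaks, or 16.3% and 26% outside promoters.

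A peak 34461 bp from Adrb1, the gene of the beta-1 adrenergic receptor, opened from normalized counts of 314, 531, 325 and 499 in S+P C5 to 760, 1021, 815 and 1133 in S+P C7 (log2 fold change of 1.19 ± 0.10, adjusted p = 1.64e-30). Near Bhlhe40, a transcription factor of effector and tissue-resident T cells, a peak rose from 272, 288, 301 and 405 to 501, 540, 663 and 832 (0.99 ± 0.11). In both peaks the groups did not overlap. Other opening peaks named by smallest adjusted p were near Eps8l3 (1.63), Gm49337 (1.57), Fbxl2 (1.28), Med13l (1.26), Tmem163 (1.16), Lgals3 (0.93) and Kcnj8 (0.91), beside those of Ccl4 and Gzmb. Lgals3, which encodes galectin-3, fell under the fold threshold without the first pair (0.87) and without the fourth (0.86), and Kcnj8 without the fourth (0.85), with loess offsets on abundance (0.89) and, by a margin of under 0.01, with 3 other fits.

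Among the closing peaks were several near regulators and receptors of naive, memory and stem-like T cells. Foxp1, a forkhead factor that maintains quiescence, had 3 called peaks out of 15, at -1.53, -1.51 and -1.21. The strongest, intronic at chr6:99286093-99287091, held 580, 613, 519 and 525 in S+P C5 against 208, 218, 176 and 176 in S+P C7 (-1.53 ± 0.12, adjusted p = 2.63e-31), with all 4 pairs between -1.57 and -1.48. Lef1, which with TCF1 reads the TCF/LEF motif, had 1 called peak of 13, at 151, 101, 150 and 89.9 in S+P C5 against 87.9, 45.1, 58.7 and 44.8 in S+P C7 (-1.05 ± 0.25, adjusted p = 2.67e-04). Its other peaks went both ways, with 5 of 13 passing upward and 5 downward. Satb1, a chromatin organizer of naive T cells, had a closing peak at 552, 494, 489 and 431 against 278, 218, 251 and 183 (-1.09 ± 0.13, adjusted p = 1.77e-15). Il7r, the receptor chain for the survival cytokine IL-7, had one at 388, 263, 482 and 292 against 160, 117, 244 and 190 (-1.002 ± 0.16, adjusted p = 9.49e-09), and its groups did not overlap.

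The same list held called peaks near Klf7 (-1.40 ± 0.27), Klf3 (-1.05 ± 0.15), Myb (-1.05 ± 0.16), Bach2 (-0.97 ± 0.15), Cxcr5 (-0.95 ± 0.13) and Ets1 (-0.93 ± 0.20). In total, 10 of the 19 stem-like and memory genes with peaks had a closing peak and none had an opening one. Of the 143 peaks of these genes 13 closed, and of the 125 outside promoters 12 closed (9.60%), against 6.2% of all peaks outside promoters. At any fold, 58 of the 143 passed downward (40.6%) and 8 upward (5.59%), beside 26% and 16.3% of all peaks outside promoters, and the median log2 fold change was -0.24, against 0.00018 over all peaks and -0.05 over all peaks outside promoters. Tcf7 itself had no called peak. Of its 6 peaks, 4 passed downward, and they spanned -0.70 to -0.02. Both peaks of Slamf6, a surface marker of stem-like exhausted cells, passed downward, at -0.88 and -0.68. Of these calls 4 fell under the fold threshold when 1 pair was left out: Bach2 without the third (-0.89), Klf3 without the fourth (-0.89), Cxcr5 without the fourth (-0.78) and Ets1 without the second (-0.89) or the fourth (-0.86). With loess offsets on abundance, the peaks of Lef1 (-0.37), Ets1 (-0.48), Klf7 (-0.62), Myb (-0.79), Bach2 (-0.88) and Il7r (-0.90) were under it, as were those of Il7r (-0.86) and Ets1 (-0.90) with loess offsets on GC content and that of Ets1 after thinning (-0.88). In edgeR without pairing the peaks of Lef1 (adjusted p = 0.101) and Klf7 (0.112) did not pass.

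**Figure D3:**
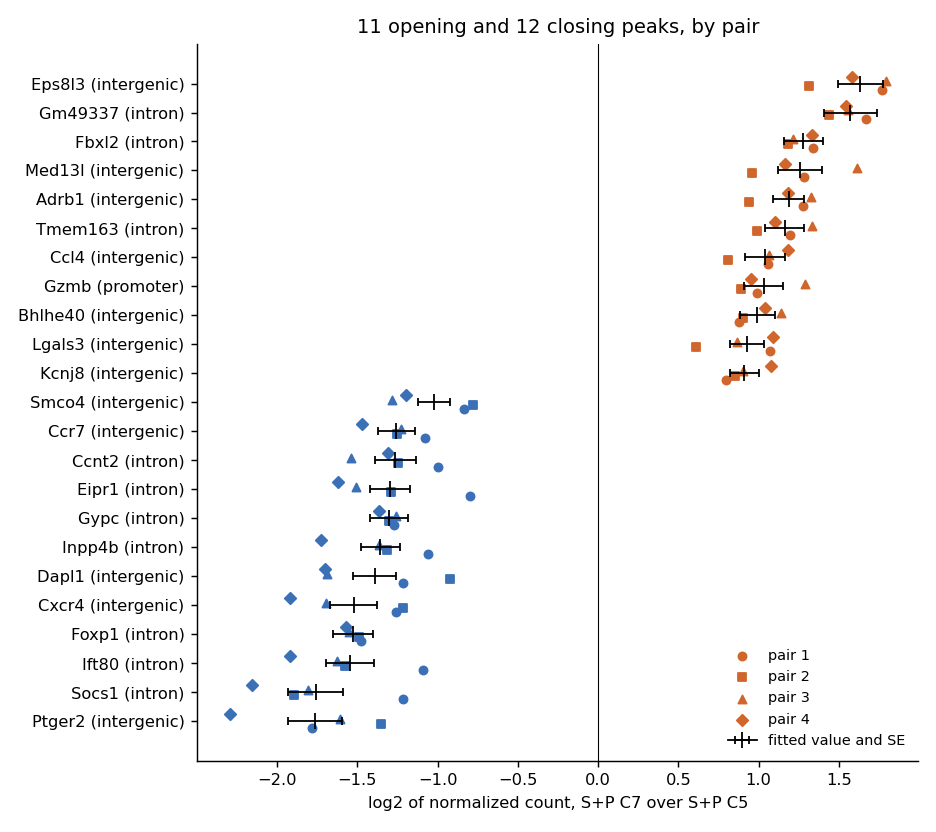
Log2 of the normalized count of S+P C7 over S+P C5 (x axis) for 11 opening (orange) and 12 closing (blue) peaks of smallest adjusted p among those with the same direction in all 4 pairs and no overlap between groups, labelled by nearest gene and location. Coloured marks are the 4 pairs, and black crosses are the fitted fold changes with bars of 1 SE. That the pairs lie on the same side of 0 was a condition for naming a peak, and what the plot adds is their spread, from 1.31 to 1.79 for Eps8l3, for example.

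Among chemokine receptor and homing genes, 5 had closing peaks and 1 had opening peaks. Ccr7, which guides T cells into lymph nodes, had the most called peaks of any gene, 5 of its 6, all closing and between -1.53 and -1.08. The sixth passed downward as well, at -0.68, and of the 5 calls 1 ended with loess offsets on abundance (-0.47) and another in edgeR without pairing (adjusted p = 0.137). The peak at chr11:99061418-99062649 held 780, 692, 626 and 520 in S+P C5 against 369, 290, 266 and 187 in S+P C7 (-1.26 ± 0.12, adjusted p = 5.74e-24). Cxcr4, the receptor for the marrow and stromal chemokine CXCL12, had a closing peak 190109 bp away at 466, 635, 595 and 408 against 194, 273, 184 and 107 (-1.52 ± 0.15, adjusted p = 2.63e-22). Gpr183, which positions lymphocytes along oxysterol gradients, and Gpr15, a receptor for homing to the colon, had 2 closing peaks each, with the strongest at -1.18 and -1.24. Cd44, an adhesion receptor of activated cells, had 1 closing peak of 8 (-0.99 ± 0.15), at 273, 454, 283 and 360 against 142, 252, 152 and 153. Without the third pair the call at the intergenic Gpr15 peak ended (-0.87), and without the fourth that of Cd44 (-0.90), as it did with loess offsets on abundance (-0.87). Cx3cr1, described above, was the single homing gene with opening peaks. Over the 87 peaks of the list 22 passed upward (25.3%) and 28 downward (32.2%), beside 11.7% and 14.6% of all peaks, or 16.3% and 26% outside promoters. Both shares of the list were thus above those of all peaks. Of the 69 outside promoters 10 closed (14.5%), beside 6.2% of all peaks there.

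The exhaustion and anergy list had 4 closing peaks and no opening one among its 93. Tox, a nuclear factor that sustains exhaustion, had 8 peaks, of which 7 passed downward and 1 was called, at 410, 282, 364 and 256 in S+P C5 against 224, 154, 130 and 94.5 in S+P C7 (-1.16 ± 0.17, adjusted p = 3.53e-10). Its groups did not overlap. Cblb, which encodes an E3 ligase that raises the threshold for T cell activation, had 3 called peaks of 21, and the strongest held 693, 721, 582 and 407 against 405, 316, 191 and 147 (-1.24 ± 0.14, adjusted p = 3.69e-16). The groups came within 2 counts of each other there, at 407 and 405. The 5 peaks of Nr4a1, an early response gene of receptor signaling, all passed upward but were small (0.19 to 0.38). All 4 closing peaks lay outside promoters, where they were 5.63% of the 71 peaks of the list, a share near the 6.2% of all peaks there. In all, 27 peaks of the list passed downward (29.03%) and 11 upward (11.8%), beside 14.6% and 11.7% of all peaks, or 26% and 16.3% of those outside promoters.

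Of 29 peaks near 11 co-inhibitory receptor genes, 1 opened (Havcr2) and 1 closed, an exonic peak of Btla, beside 3.27% of all peaks called. Outside promoters 1 of 21 was called (4.76%), under the 7.07% of all peaks there. The Btla peak was at -0.92 ± 0.16 with groups that overlapped. Its call ended without the fourth pair (-0.71), with loess offsets on GC content (-0.81), after thinning all libraries to the depth of the shallowest (-0.83) and without pairing (-0.84 to -0.83 in DESeq2 and edgeR). In the list 10 peaks passed downward (34.5%) and 3 upward (10.3%). Tigit had 2 of 5 peaks and Ctla4 2 of 3 that passed downward, none called. For T cell receptor signaling and co-stimulation, 1 of 137 peaks was called (0.730%, beside 3.27% of all peaks), near Cd28 (-1.05 ± 0.16). In this list 28 peaks passed downward (20.4%) and 16 upward (11.7%), beside 14.6% and 11.7% of all peaks, or 26% and 16.3% outside promoters. None of the 31 peaks of the AP-1 family was called, and 10 passed downward (32.3%) and 2 upward (6.45%).

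Of the 54 peaks near 14 effector molecule genes, 26 passed upward (48.1%) and 9 downward (16.7%), beside 11.7% and 14.6% of all peaks, or 16.3% and 26% of all peaks outside promoters, and their median log2 fold change was 0.18. All 4 peaks of Gzma, all 3 of Gzmb and both peaks each of Ccl3, Ccl4 and Ccl5 passed upward, and 3 of 4 peaks of Prf1, the perforin gene, did so. Opening peaks were those of Gzma, Gzmb and Ccl4 described above (5.56%, beside 0.414% of all peaks and 0.871% of those outside promoters). A single peak closed (1.85%, beside 2.86% and 6.2%), 192700 bp from Ifng. It held 538, 285, 431 and 262 in S+P C5 against 289, 150, 165 and 166 in S+P C7 (-0.95 ± 0.15). Ifng encodes interferon gamma. Its groups overlapped there, the value without the third pair was -0.82, with loess offsets on abundance -0.87 and with those on GC content -0.88, and of its 6 peaks 1 passed upward and 1 downward. NK-type receptor genes had 9 of 27 peaks passing upward (33.3%) and 2 downward (7.41%), with a median of 0.17. Among effector regulators 17 of 70 peaks passed upward (24.3%) and 11 downward (15.7%), the latter near the share over all peaks. Bhlhe40 had the single opening peak of that list, and the closing ones were near Hopx (-1.01 ± 0.12) and Znrf1 (-1.26 ± 0.21, but -0.81 with loess offsets on abundance and an adjusted p of 0.120 in DESeq2 without pairing over 25 libraries). Of the 70 peaks 1.43% thus opened and 2.86% closed, beside 0.414% and 2.86% of all peaks, or 0.871% and 6.2% outside promoters. The master regulator genes Tbx21 and Eomes had no called peak, with 1 of 4 and 2 of 8 peaks passing upward.

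**Figure D4:**
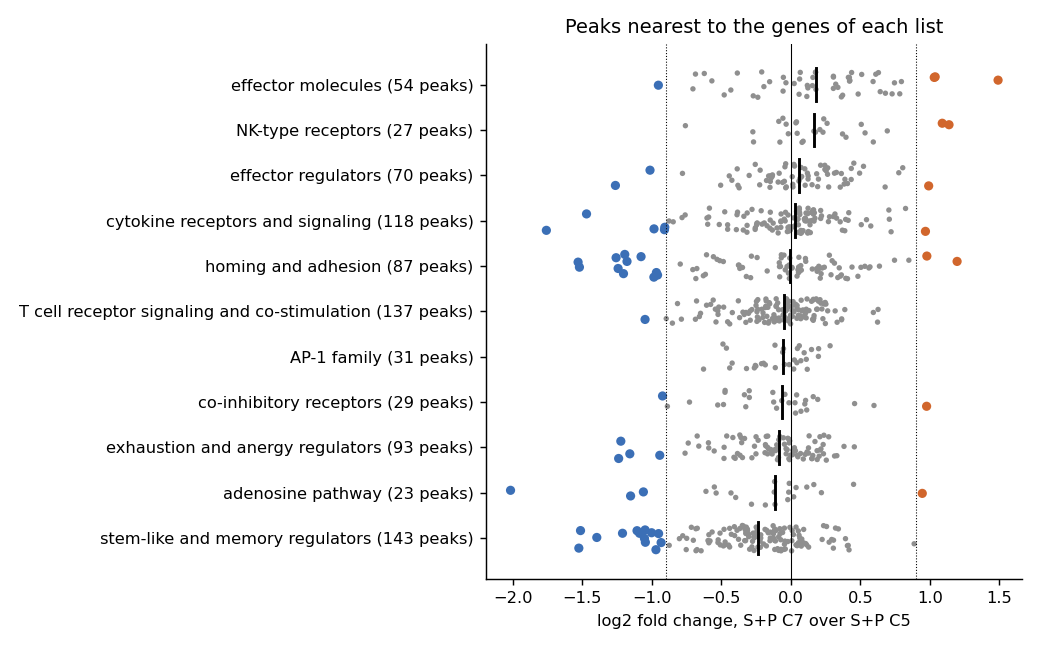
Log2 fold change of S+P C7 over S+P C5 (x axis) for each peak nearest to the genes of 11 lists, with black bars at the medians, dotted lines at the fold thresholds and called peaks in orange (opening) or blue (closing). The stem-like and memory list has the lowest median (-0.24) and the effector molecules the highest (0.18).

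Near cytokine receptor and signaling genes, 1 of 118 peaks opened and 5 closed, and the median log2 fold change was 0.03. At any fold, 20 passed upward (16.9%) and 26 downward (22.03%), beside 11.7% and 14.6% of all peaks, or 16.3% and 26% outside promoters. The 5 closing peaks were 5.15% of the 97 outside promoters, a share under the 6.2% of all peaks there. The peak named for Socs1, the feedback inhibitor of JAK-STAT signaling, lies inside an intron of Clec16a and 116851 bp away from the Socs1 start. It held 428, 429, 426 and 418 in S+P C5 against 184, 115, 121 and 93.1 in S+P C7 (-1.76 ± 0.17, adjusted p = 7.34e-22), and the S+P C5 libraries were nearly equal. All 4 Socs1 peaks passed downward. A peak 17618 bp from Ptger2, which encodes a receptor for prostaglandin E2, fell from 292, 665, 405 and 327 to 84.2, 259, 132 and 65.8 (-1.77 ± 0.17, adjusted p = 1.51e-22). Tgfbr2, a chain of the receptor for TGF-beta, had closing peaks at -0.91 ± 0.18 and -1.47 ± 0.31, and Il4ra one at -0.91 ± 0.26. Without the second pair the first Tgfbr2 peak was at -0.82 and that of Il4ra at -0.72, and with loess offsets on abundance they were at -0.61 and -0.21. The same Tgfbr2 call also ended with loess offsets on GC content (-0.82) and, at -0.90, in edgeR with or without pairing and in DESeq2 without pairing over 8 libraries. The Il4ra call also ended in edgeR with pairing (-0.87) and without pairing in each fit (-0.89). Smad7, an inhibitor of TGF-beta signaling, had 1 opening (0.97 ± 0.15) and 1 closing peak (-0.98 ± 0.20). The opening one fell under the fold threshold without the third pair (0.78) or the fourth (0.89).

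By nearest start the called peaks fell under 381 labels, where 1 opening peak without a gene counts as a label. Of these labels 49 had 2 or more called peaks and 3 had peaks in both directions. After Ccr7 came Btg1, an antiproliferative gene of quiescent lymphocytes, with 4 closing peaks of 14 (-1.48 to -1.003), and Eipr1 with 4 of 5 (-1.39 to -1.20). With loess offsets on abundance none of the 4 Btg1 peaks was called (-0.84 to -0.50), and 3 of the 4 Eipr1 peaks were not (-0.76 to -0.64). The Eipr1 peak of smallest adjusted p, intronic, held 1037, 838, 1056 and 761 in S+P C5 against 596, 342, 371 and 247 in S+P C7 (-1.29 ± 0.13). Ptpre, the gene of a receptor-type phosphatase, is named after its values were seen. All 3 of its peaks were called, 2 opening (1.25 and 1.28) and 1 closing (-1.20), within 1 gene body. In the intronic opening peak 51423 bp from the start, libraries were at 109, 178, 218 and 368 in S+P C5 against 281, 359, 587 and 812 in S+P C7, so the groups overlapped while each pair rose. The intronic closing peak 5100 bp from the start was at 253, 213, 243 and 223 against 138, 97.8, 82.6 and 88.9, without overlap. The remaining closing peaks named by smallest adjusted p were near Ift80 (-1.54), Dapl1 (-1.39), Inpp4b (-1.36), Gypc (-1.30), Ccnt2 (-1.26) and Smco4 (-1.02). Inpp4b encodes a phosphoinositide phosphatase.

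Levels in the other groups placed the sets on different backgrounds. With counts normalized over all 25 libraries, the median opening peak was at 20.3 in Naive, 18.04 in N+P C1 and 22.5 in N+P C5, at 154 in Sensitized, 289 in S+P C4, 172 in S+P C5 and finally 380 in S+P C7. Opening peaks were thus lowest in cells of mice without a graft, the PD1+CD73+ cells of naive mothers included. The PD1- cells of sensitized mothers stood above S+P C5. The median closing peak was at 372 in Naive, 329 in N+P C1, 336 in N+P C5, 260 in Sensitized, 210 in S+P C4, 233 in S+P C5 and finally 106 in S+P C7. For all peaks together, the medians of the 7 groups lay between 469 and 483. The order of S+P C5 and S+P C7 follows from how the sets were chosen. Of the 56 opening peaks, 55 overlapped the deposited peak list of S+P C7, 9 that of S+P C5 and 0 those of Naive, N+P C1 or N+P C5. Most thus entered the count table through S+P C7. Their low levels in Naive, N+P C1 and N+P C5 are therefore in part built in by peak calling, and the levels of the other 5 groups are a description.

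**Figure D5:**
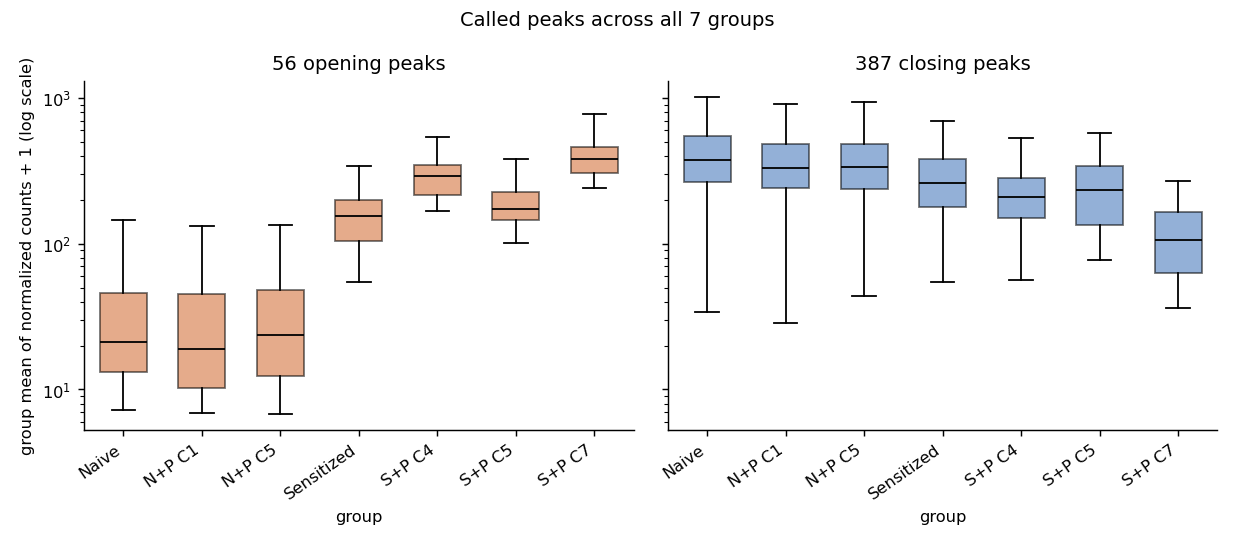
Group means of counts normalized over 25 libraries, plus 1 (y axis, log scale), of the 56 opening peaks (left) and 387 closing peaks (right) in the 7 groups, as boxes with the median and quartiles and whiskers at the 5th and 95th percentiles. Opening peaks are low in Naive, N+P C1 and N+P C5 (medians of 18.04 to 22.5 before the 1 is added), and closing peaks are lowest in S+P C7 (106).

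Sensitized against Naive shares no library with the comparison of S+P C7 and S+P C5. In it, 54 of the 56 opening peaks had a log2 fold change above 0, with a median of 2.76, and 50 were called higher in Sensitized, against 7.22% of all peaks called higher and 15.4% of those outside promoters. Of the 56, 0 were in the Naive peak list, beside 62.6% of all peaks. They thus entered the count table through other groups, so a low level in Naive was in part built in. All peaks are an unlike background for them, and these counts are no independent support. Of the 387 closing peaks 307 were below 0, with a median of -0.52, and 66 were called lower, against 1.4% of all peaks and 3.04% of those outside promoters, while 26 were called higher. Over all peaks 47.2% were above 0 in that comparison. N+P C5 against N+P C1 had no called peak in either direction in this DESeq2 fit over 25 libraries, where 308 of all peaks had an unadjusted p under 0.05. In DESeq2 fits of the 6 N+P libraries alone, added after seeing the data, 2 peaks were called with the replicate number as a block and 9 without it, all higher in N+P C5. With the block none of these belonged to the opening or closing set, and without it 1 was a closing peak. The medians in the fit over 25 libraries were 0.21 for opening and 0.04 for closing peaks, and 63.1% of all peaks outside promoters were above 0.

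Closing peaks differed in the group where they stood highest. Among the 7 group means, Naive was highest at 181 of the 387, S+P C5 at 84, N+P C1 at 53, N+P C5 at 48 and Sensitized at 21. S+P C7 could hardly be highest at peaks chosen as lower there than in S+P C5, so these counts are not set against all peaks. Among the 5 groups outside the comparison, Naive was highest at 201 closing peaks (51.9%), beside 19.1% of all peaks and 24.3% of those outside promoters. Sensitized was highest at 58 (15.0%, beside 15.1% and 24.02%), N+P C5 at 59 (15.2%, beside 15.4% and 11.95%), N+P C1 at 55 (14.2%, beside 21.8% and 14.5%) and S+P C4 at 14 (3.62%, beside 28.7% and 25.3%). Highest in Naive were the called peaks of Bach2 and Tox and the strongest of Ccr7 and Satb1. The Tox peak averaged 813 in Naive and 512 in Sensitized, with 299 in S+P C5 but 137 in S+P C7. At 45 closing peaks the S+P C5 mean was more than 2 times that of each of the 5 groups outside the comparison, as at 232 of all 13527 peaks and at none of the opening ones. This set was defined after the values were seen, and a high S+P C5 level is part of how closing peaks were chosen. It holds the Nt5e intronic peak and both closing peaks of Ptger2, where the stronger averaged 385 in S+P C5, 123 in S+P C7 and 33.7 to 63.3 elsewhere. An exonic peak of Mmp10, a matrix protease, averaged 811 ± 199 in S+P C5, 441 ± 243 in S+P C7 and at most 60.1 in the other groups. Its S+P C7 libraries were at 745, 675, 310 and 208 in the 8-library fit and those of S+P C5 at 906, 1185, 686 and 780, so the groups overlapped and the log2 fold change of -1.03 ± 0.33 came with an adjusted p of 0.0124. The Cd44 closing peak belonged here too, at 312 in S+P C5, 159 in S+P C7 and 138 in Sensitized. Among opening peaks, S+P C7 was highest of the 7 groups at 52 and S+P C4 at 4, and among the 5 groups outside the comparison S+P C4 was highest at all 56.

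The deposited peak lists, one per group and pooled over its libraries, described the same sets by presence. Of the 56 opening peaks, 55 overlapped a peak of the S+P C7 list, 9 one of the S+P C5 list, 3 one of the Sensitized list, 3 one of the S+P C4 list (5.36%, beside 27.04% of all peaks) and 0 one of the Naive or N+P lists. The S+P C4 list thus held few opening peaks, although their median count was higher in S+P C4 than in S+P C5, and of the 7 lists it covered the fewest of the 13527 peaks. Of the 387 closing peaks, 180 were in the S+P C5 list (46.5%, beside 82.9% of all peaks) and 4 in that of S+P C7 (1.03%, beside 63.96%). The Naive list held 240 (62.02%), a share near the 62.6% of all peaks, the Sensitized list 129 (33.3%, beside 71.1%) and the S+P C4 list 15 (3.88%, beside 27.04%). These lists carry no replicate error. They were called from the same reads as the counts and are a description.

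Short sequence strings were counted in the 400 bases around each peak midpoint, on both strands, for 51 opening, 363 closing and 5857 peaks in all outside promoters. The TCF/LEF string CTTTGAT was in 1 opening peak (1.96%), 87 closing peaks (23.97%) and 534 of all (9.12%). The difference was present on both sides of the median GC content of 48.1%. Among peaks at or below it the string was in 65 of 259 closing peaks (25.1%) and 11.6% of all, and above it in 22 of 104 (21.2%) and 6.63% of all. At any fold, it was in 16.4% of the peaks that passed downward, 4.10% of those that passed upward and 7.24% of those that did not pass. Seen from the string, 87 of the 534 peaks that held it closed (16.3%), with a median log2 fold change of -0.28, and among the 5323 without it 276 closed, with a median of -0.03. The closing peaks of Nt5e, Socs1, Eipr1, Cblb, Klf7 and Lef1 printed above are among the holders.

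Other strings are given by their shares of opening, closing and all peaks outside promoters, in that order. The NFAT core TGGAAA was in 31.4%, 40.2% and 32.4%. Its excess in closing peaks was present at or below the median GC content (45.2% of closing against 37.0% of all). Above the median it was absent (27.9% of closing and 27.9% of all). The E-box string CACCTG was in 17.6%, 32.2% and 28.3%, and the E-box string CAGCTG in 11.8%, 17.6% and 23.97%. The T-box string AGGTGTNA, which can overlap CACCTG, was in 11.8%, 7.99% and 8.91%. AGATAA, the core that GATA factors read, was in 13.7%, 20.1% and 18.05%, IRF (GAAANNGAA) in 9.80%, 16.3% and 15.8%, STAT (TTCNNNGAA) in 7.84%, 14.6% and 12.9%, and KLF (CCACACCC) in 7.84%, 5.51% and 6.33%. The other 6 strings searched, named for CRE, ETS, NR4A, NF-kB, PRDM1 and CTCF, were in at most 6.06% of the peaks of any set, and the CRE string was in 1 closing peak (0.275%) and no opening peak, beside 1.81% of all. AP-1 (TGANTCA) was near equal, at 21.6%, 19.8% and 19.9%, as was RUNX (TGTGGTTT), at 11.8% in each set. With 51 opening peaks, 1 peak changes a share by 1.96 percentage points.

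The share of counts in promoter peaks, a single value per library, overlapped between the groups. It was 66.4% ± 1.22 (SD, n = 4) in S+P C5 against 66.9% ± 0.508 in S+P C7, and higher in S+P C7 in 3 of 4 pairs. The mean paired difference was 0.473 ± 0.859 percentage points (SD of the differences), with p = 0.375 in a two-sided exact permutation test over the pairs, where 4 pairs allow no p under 0.05 and 0.13 is the smallest.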

How the data were processed

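Per the study's methods, the authors trimmed paired reads with cutadapt 3.4, aligned them to GRCm39 with Bowtie2 2.2.9, removed reads without a unique position (Bamtools) and PCR duplicates (Picard 2.21.8), called peaks per library with Genrich 0.6.1 in its ATAC mode, kept peaks that recurred within a group (ChIP-R) and merged the groups' lists with bedtools 2.27.1. All were sequenced in 1 run. The material came from at least 2 independent experiments, but which library belongs to which is not given in the sources used here. The deposited table holds raw read counts of 13527 merged peaks, with no scaling, made with multiBamSummary. The deposited peak lists pool the libraries of a group and give a ChIP-R score per peak, which was not used beyond the peak positions.

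S+P C7 was compared with S+P C5 by the Wald test of DESeq2 1.42.0 (R 4.3.3) on the 8 libraries, with the replicate number as a block, median-of-ratios size factors and Benjamini-Hochberg adjustment over all peaks. The call thresholds (adjusted p under 0.1, log2 fold change beyond 0.9, not shrunken) are those of the study. The numbers pair the libraries: deviations of same-numbered libraries from their group means correlated at 0.522 to 0.771 across peaks, and at most 0.138 with another number. The labels do not say that same-numbered libraries came from 1 animal. No library was a copy of another, with a lowest chi-square per degree of freedom of 5.40. Cell suspensions were prepared from individual mice, but no source ties a library to a mouse, so p-values measure the spread between these libraries. Sensitized against Naive and N+P C5 against N+P C1 were read from 1 fit over the 25 libraries with only the group in the model. For the N+P libraries, whose same-numbered deviations correlated at 0.110 to 0.410, a blocked fit was added after seeing the data. The scripts were tested on simulated counts.

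Genes are those with the nearest protein-coding start in GENCODE vM39 on GRCm39, and sequences come from that assembly. Coordinates are 1-based. Named peaks were up to 12 opening and 12 closing with the smallest adjusted p, no overlap between groups and the same direction in 4 of 4 pairs, at most 1 per gene, the called peaks of listed genes, all peaks of Nt5e, Pdcd1, Cd8a, Cd3e and Cd4, and the genes with the most called peaks. One of the 12 opening peaks and 1 of the B cell markers are not reported here. The comparison, the gene lists and the motif strings were chosen with earlier results of these data known. Alternatives covered the block, edgeR 4.0.16, other size factors, loess offsets (span 0.4), filters, thinning, thresholds and leaving out each pair. Depth limits weak peaks most, since the shallowest library held 4789587 counts.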

Additional observations from a re-analysis of the deposited data

Results flagged for a closer look

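Among 172 sets of 4 libraries, each the values of a named peak in S+P C5 or in S+P C7, 11 had a library far from the other 3 by Dixon's test at the 95% level, which chance alone gives in about 1 of 20. In S+P C5, the Tmem163 peak had a low library at 151.76 normalized counts and the Eipr1 peak 94484 bp from the start a high one at 249.74. In S+P C7 each of the outlying libraries was the highest. They were at 391.25 for the Ccnt2 peak, 170.19 for the Tgfbr2 intronic peak, 288.58 for the Ifng peak, 162.79 for the Znrf1 peak, 251.96 for the Cd44 peak, 87.87 for the Klf7 peak and 160.02 for the Ccr7 peak 13229 bp from the start. Outside the called peaks, the Pdcd1 peak 26698 bp from the start stood at 304.31 and the Cd4 intronic peak at 225.69. The outlying S+P C7 library was replicate 2 for Cd44 and replicate 1 for the other 8. Whether depth or the sort set them apart was not tested.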

How the results depend on the processing

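Of the 443 called peaks, 436 kept their direction in each of 18 alternatives, and 131 (22 opening, 109 closing) were called in each of the 17 that use a fold threshold. The count was 360 with no replicate block (351 of them shared with the blocked fit), 322 with no block over 25 libraries, where 36 opened, and 302 with edgeR and no block, where 245 closed. With the replicate block, edgeR called 433, total-count scaling 464 and loess offsets on GC content 411. Loess offsets on abundance called 239 (85 opening, 154 closing), and no fold threshold left 3551 (1577 higher, 1974 lower). N+P C5 against N+P C1 went from 0 calls over 25 libraries to 2 with a replicate block and 9 with no block on its 6 libraries. Leaving out 1 pair gave 373 to 497 calls, 45 to 82 opening and 328 to 421 closing, and the difference in promoter share ranged from 0.108 to 0.798 percentage points, with an exact p of 0.514 with no block.

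Of the named peaks, 33 of the 65 that were called stayed called in each of the 17, among them 22 of the 24 chosen by smallest adjusted p, and loess offsets on abundance ended 21 calls, which include 4 of Btg1, 3 of Eipr1 and 1 of Ccr7 (-0.47). Values near 0 that changed sign were all uncalled. The Pdcd1 peak 26698 bp away was at 0.007 with loess offsets on abundance and between -0.23 and 0.0039 when 1 pair was left out, and the one 22416 bp away at 0.032 with loess offsets on GC content and between -0.10 and 0.052. The Cd8a peak 8488 bp away was at -0.015 after thinning and between -0.0057 and 0.084 with 1 pair left out, and the one 21247 bp away between -0.0032 and 0.196. Depth limits weak peaks in both sets. The median raw count over the 387 closing peaks was 53 in the S+P C7 library where it was lowest. Over the 56 opening peaks it was 134 in the S+P C5 library where it was lowest. After thinning to the shallowest library, 49 of the opening and 356 of the closing calls were kept.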
